A study of Homo sapiens with 8 samples.

Results

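Epithelial cells keep their identity through a small set of transcription factors and splicing regulators, and 10 of these genes (TP63, GRHL1, GRHL2, OVOL1, OVOL2, EHF, ELF3, ESRP1, ESRP2 and KLF5) were followed in cells treated with RWF extract, made from the root bark of Rauwolfia vomitoria. A member was taken as the transcript cluster, the group of array probes that reads 1 gene or locus, whose annotated gene symbol was exactly that of the gene. Each of 9 members had 1 such cluster and TP63 had none, so 9 of the 10 were measured, among 22465 genes with a cluster of their own and 67528 clusters in all. Total RNA was measured on Affymetrix Human Transcriptome Arrays in 4 groups of 2 arrays. These were BPH-1 cells, a line from human prostate epithelium, with RWF extract at 250 μg/ml for 24 h or with vehicle, and WPMY-1 cells, a line from prostate stroma, with the same extract, dose and time or with vehicle. Each cell type is represented by 1 line, and BPH-1 was grown in RPMI1640 and WPMY-1 in DMEM, so line and medium cannot be told apart. Whether both arrays of a group came from separate cultures is not stated, so the p-values reflect the scatter of the arrays themselves, which may be technical.

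All values are log2 expression levels made by the authors with RMA, which corrects the background and normalizes the arrays to each other. The fold is 2 to the power of a difference. Across all clusters, Pearson r was 0.995 to 0.997 within a group, 0.990 to 0.996 between the RWF and the vehicle arrays of a line, and 0.970 to 0.975 between the lines. The lines carried the markers of their labels. With vehicle, 8 of 9 measured epithelial markers were higher in BPH-1 than in WPMY-1 cells, and 10 of 10 stromal markers were lower. By limma at an adjusted p under 0.05, 16.6% of all clusters were called in either direction. No prostate luminal secretory marker was higher in BPH-1, with 0 of 5 called higher and 1 called lower, and CD14 was the 1 of 6 endothelial and immune markers that was called, and both single calls (ACP3 and CD14) were lost in some fits without 1 array, 4 and 3 of 8. The table holds no detection call. As a rough guide to background, the 364 measured olfactory receptor genes had a median of 2.67 to 2.72 in the 4 groups and a 95th percentile of 4.44 to 4.58.

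In textbook accounts the grainyhead-like factors GRHL1 and GRHL2 bind enhancers of junction genes such as CDH1 and hold them open. OVOL1 and OVOL2 are zinc finger repressors of mesenchymal genes, EHF and ELF3 are ETS factors of epithelia, and KLF5 is a zinc finger factor of basal and proliferating epithelium. ESRP1 and ESRP2 bind pre-mRNA and select the epithelial exons of genes such as FGFR2, CD44 and ENAH, and ZEB1 and its relatives, which are themselves silenced by microRNAs of the miR-200 family, repress epithelial genes. The arrays give 1 value per gene here, so which exons were used was not measured.

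RefSeq promoter windows (GRCh38.p14, the 250 bases before the start site) were at hand for 4 of the 9 measured members, 6 windows in all. The 4 genes were all higher in BPH-1, and their windows, all but that of the second EHF start, are shown because they differ in CpG content, the base pair step at which promoters are methylated. CpG steps are in capitals. The windows lie at chr1:202010337-202010586 for ELF3, chr2:9951443-9951692 for GRHL1, chr11:34624007-34624256 for the first EHF start and chr13:73054726-73054975 and chr13:73058755-73059004 for the 2 KLF5 starts, all on the plus strand.
ELF3: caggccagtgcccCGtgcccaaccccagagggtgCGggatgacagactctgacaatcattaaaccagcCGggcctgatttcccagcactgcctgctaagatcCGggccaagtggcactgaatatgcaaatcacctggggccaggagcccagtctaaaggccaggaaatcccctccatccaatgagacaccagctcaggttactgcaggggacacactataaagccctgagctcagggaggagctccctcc
GRHL1: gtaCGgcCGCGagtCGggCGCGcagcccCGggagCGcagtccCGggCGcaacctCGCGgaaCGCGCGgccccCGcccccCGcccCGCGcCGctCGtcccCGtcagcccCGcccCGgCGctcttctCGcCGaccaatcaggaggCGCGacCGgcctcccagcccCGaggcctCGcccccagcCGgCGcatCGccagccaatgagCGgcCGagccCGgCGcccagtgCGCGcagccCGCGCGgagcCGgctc
EHF, first start: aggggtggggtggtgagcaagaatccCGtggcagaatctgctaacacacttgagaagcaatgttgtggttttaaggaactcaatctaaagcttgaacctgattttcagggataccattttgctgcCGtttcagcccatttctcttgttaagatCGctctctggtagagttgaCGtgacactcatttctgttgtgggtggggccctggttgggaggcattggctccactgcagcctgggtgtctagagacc
KLF5, first start: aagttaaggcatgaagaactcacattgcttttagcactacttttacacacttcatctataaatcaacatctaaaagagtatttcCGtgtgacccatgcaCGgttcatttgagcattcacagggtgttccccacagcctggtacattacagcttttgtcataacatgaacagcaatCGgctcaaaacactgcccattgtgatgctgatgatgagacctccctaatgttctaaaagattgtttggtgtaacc
KLF5, second start: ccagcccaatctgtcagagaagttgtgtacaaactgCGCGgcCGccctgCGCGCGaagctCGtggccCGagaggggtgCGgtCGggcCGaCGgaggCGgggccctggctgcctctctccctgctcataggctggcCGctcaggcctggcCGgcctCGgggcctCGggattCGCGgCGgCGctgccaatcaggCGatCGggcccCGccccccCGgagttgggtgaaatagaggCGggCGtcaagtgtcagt
GRHL1 had 45 CpG steps, more than 99.4% of the 35116 promoter windows of the same length, and the second KLF5 start had 27, more than 82.3%. The windows of ELF3 and of the first EHF start had 4 each, the first KLF5 start 3 and the second EHF start 2, against a median of 11 over all windows. Of 4 motifs searched on both strands, only the E-box CAGGTG, the letters read by ZEB and SNAIL repressors, was found, once, in the ELF3 window as CACCTG, 120 bases before the start site. That motif was in 17.5% of all windows. No member window held ACCGGT, the core of the grainyhead-like motif (1.4% of windows), CCGGAA of ETS factors (14.5%) or CCGTTA of OVO-like factors (2.5%). A match gives letters only and no binding was measured.

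All 9 measured members were higher in BPH-1 than in WPMY-1 cells with vehicle (limma, adjusted p under 0.05), where 16.6% of all clusters were called in either direction and 8.82% higher. The differences ran from 0.44 for OVOL1 to 4.57 for ESRP1, with a median of 2.08 against 0.01 over all clusters. In each of the 9 genes all 4 BPH-1 arrays were above all 4 WPMY-1 arrays, a pattern that 12% of all clusters had. RNA was taken from whole cultures, so fewer expressing cells and less RNA per cell cannot be told apart.

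**Figure D1:**
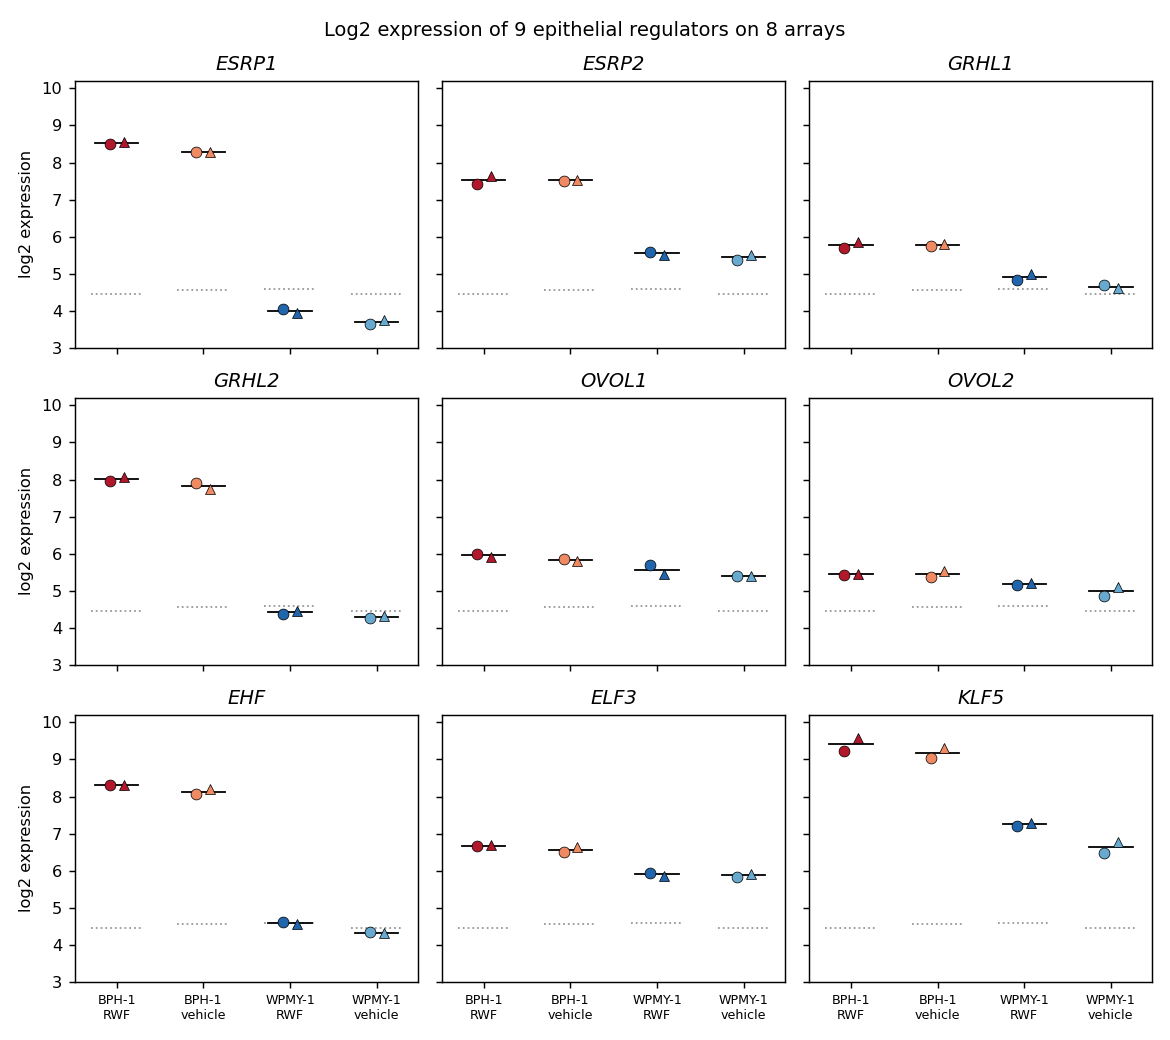
Log2 expression (y axis) of the 9 measured genes on each of the 8 arrays, with circles for replicate 1, triangles for replicate 2, a bar for the group mean and a dotted line for the 95th percentile of olfactory receptor genes in that group (4.44 to 4.58). All BPH-1 points lie above all WPMY-1 points in every panel, and in vehicle-treated WPMY-1 cells ESRP1, GRHL2 and EHF lie under the dotted line.

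The splicing regulator ESRP1 had the largest line difference. Its cluster (TC08000575.hg.1) had 8.49 and 8.56 in RWF-treated and 8.28 and 8.27 in vehicle-treated BPH-1 cells, against 4.04 and 3.95 in RWF-treated and 3.65 and 3.76 in vehicle-treated WPMY-1 cells. The lines were thus 4.23 apart at their nearest arrays. With vehicle ESRP1 was 23.7-fold higher in BPH-1 (4.57, SE 0.08, limma adjusted p = 3.05e-08). Its paralog ESRP2 (TC16001206.hg.1) had 7.43 and 7.64 in RWF-treated and 7.49 and 7.54 in vehicle-treated BPH-1 cells, against 5.59 and 5.50 in RWF-treated and 5.37 and 5.50 in vehicle-treated WPMY-1 cells. It was 4.21-fold higher in BPH-1 with vehicle (2.08, SE 0.10, limma adjusted p = 3.05e-06). In vehicle-treated WPMY-1 cells 52 of the 364 olfactory receptor genes were above ESRP1 and 3 were above ESRP2, while in both BPH-1 groups 0 were above ESRP1 and 1 was above ESRP2. ESRP1 in WPMY-1 thus lay within the range of genes these cells are not known to use, and its fold may understate the difference.

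GRHL2 (TC08000629.hg.1), the grainyhead-like factor of simple and pseudostratified epithelia, had 7.96 and 8.07 in RWF-treated and 7.90 and 7.74 in vehicle-treated BPH-1 cells, against 4.37 and 4.46 in RWF-treated and 4.26 and 4.31 in vehicle-treated WPMY-1 cells. The difference with vehicle was 3.54 (SE 0.09, 11.6-fold, limma adjusted p = 1.36e-07), and in both WPMY-1 groups 25 of the 364 olfactory receptor genes were above it. GRHL1 (TC02000054.hg.1), whose CpG-dense promoter is printed above, had a smaller difference. Its values were 5.69 and 5.85 in RWF-treated and 5.75 and 5.80 in vehicle-treated BPH-1 cells, against 4.84 and 5.00 in RWF-treated and 4.69 and 4.61 in vehicle-treated WPMY-1 cells. It was 2.18-fold higher in BPH-1 with vehicle (1.13, SE 0.09, limma adjusted p = 7.68e-05). Its WPMY-1 values lay near the background guide, with 10 olfactory receptor genes above it with RWF and 16 with vehicle.

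Of the ETS factors, EHF (TC11000329.hg.1) had 8.31 and 8.32 in RWF-treated and 8.06 and 8.21 in vehicle-treated BPH-1 cells, against 4.62 and 4.55 in RWF-treated and 4.34 and 4.31 in vehicle-treated WPMY-1 cells. It was 14.0-fold higher in BPH-1 with vehicle (3.81, SE 0.08, limma adjusted p = 7.49e-08), and its WPMY-1 values lay close to the background guide, with 18 olfactory receptor genes above it with RWF and 23 with vehicle. ELF3 (TC01001670.hg.1), the gene with the E-box in its window, was measured well above that guide in both lines, with 2 of 364 above it in each WPMY-1 group. Its values were 6.66 and 6.69 in RWF-treated and 6.50 and 6.64 in vehicle-treated BPH-1 cells, against 5.94 and 5.86 in RWF-treated and 5.83 and 5.92 in vehicle-treated WPMY-1 cells. The difference with vehicle was 0.69 (SE 0.08, 1.62-fold, limma adjusted p = 0.000657).

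KLF5 (TC13000273.hg.1) had 9.23 and 9.59 in RWF-treated and 9.04 and 9.32 in vehicle-treated BPH-1 cells, against 7.21 and 7.29 in RWF-treated and 6.48 and 6.77 in vehicle-treated WPMY-1 cells. It was 5.87-fold higher in BPH-1 with vehicle (2.55, SE 0.15, limma adjusted p = 1.17e-05), and its WPMY-1 values were not near background, with 1 of 364 olfactory receptor genes above it.

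The OVOL repressors showed the smallest line differences. OVOL1 (TC11000642.hg.1) had 5.99 and 5.91 in RWF-treated and 5.85 and 5.81 in vehicle-treated BPH-1 cells, against 5.69 and 5.44 in RWF-treated and 5.39 and 5.40 in vehicle-treated WPMY-1 cells. The nearest arrays of the lines were 0.12 apart. OVOL2 (TC20001726.hg.1) had 5.42 and 5.46 in RWF-treated and 5.36 and 5.53 in vehicle-treated BPH-1 cells, against 5.16 and 5.22 in RWF-treated and 4.86 and 5.10 in vehicle-treated WPMY-1 cells, with the nearest arrays 0.14 apart. With vehicle OVOL1 was 1.35-fold (0.44, SE 0.10, limma adjusted p = 0.0144) and OVOL2 1.38-fold higher in BPH-1 (0.46, SE 0.10, limma adjusted p = 0.0151). Both calls were close to the threshold and were lost in some fits without 1 array, in which the differences ran from 0.42 to 0.46 for OVOL1 and 0.34 to 0.58 for OVOL2. OVOL1 lost it without vehicle-treated BPH-1 replicate 1 (adjusted p = 0.0842) or 2 (0.0662) or vehicle-treated WPMY-1 replicate 1 (0.0604) or 2 (0.0530), and OVOL2 without vehicle-treated BPH-1 replicate 2 (0.116) or vehicle-treated WPMY-1 replicate 1 (0.0831), all by limma.

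**Figure D2:**
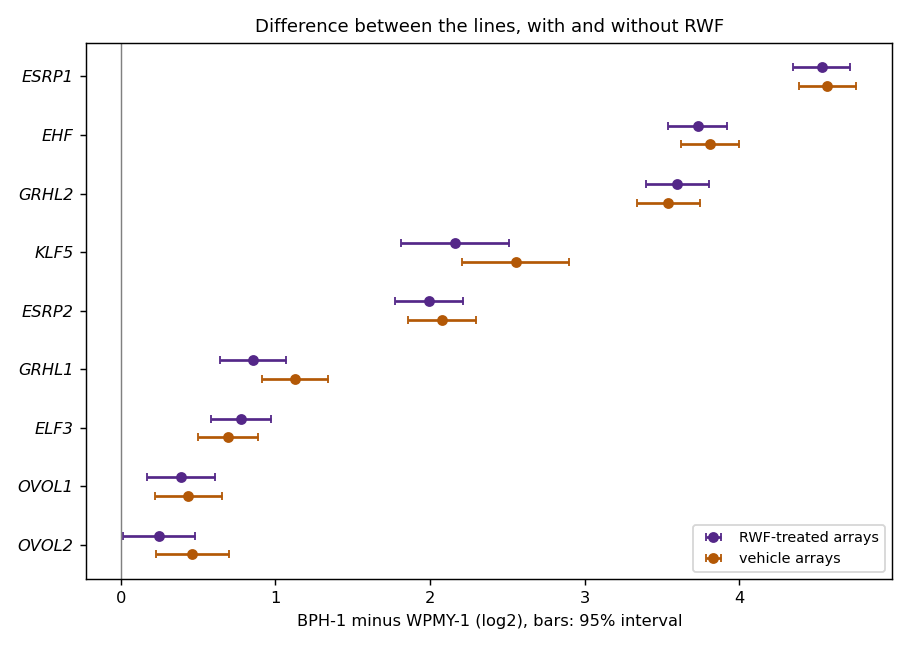
Log2 difference of BPH-1 minus WPMY-1 (x axis) for each of the 9 genes, in RWF-treated arrays (purple) and in vehicle-treated arrays (orange), with points for the limma estimate and bars for its 95% interval. The genes run from 4.53 and 4.57 for ESRP1 at the top to 0.25 and 0.46 for OVOL2 at the bottom, and every interval lies above 0.

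With RWF extract in both lines the line difference was called for 8 of the 9 genes, where 16.6% of all clusters were called in either direction and 8.77% higher in BPH-1. ESRP1 (4.53), EHF (3.73), GRHL2 (3.60), KLF5 (2.16), ESRP2 (1.99), GRHL1 (0.85), ELF3 (0.78) and OVOL1 (0.39, limma adjusted p = 0.0249) passed. OVOL2 did not, with a difference of 0.25 and a 95% interval of 0.01 to 0.48 (limma adjusted p = 0.154). OVOL1 lost its call here without RWF-treated BPH-1 replicate 1 or 2, without RWF-treated WPMY-1 replicate 2, where its difference was 0.26, and when only the RWF arrays were fitted (limma adjusted p = 0.0652). In 7 members the 4 group means had the same order, with RWF-treated BPH-1 highest, then vehicle-treated BPH-1, RWF-treated WPMY-1 and vehicle-treated WPMY-1. In GRHL1 and OVOL2 the means of vehicle-treated and RWF-treated BPH-1 stood the other way round. How many of all clusters had the first order was not counted. Between the lines it restates the line difference. Within a line it needs only an RWF mean above the vehicle mean, as 46.5% of all clusters had in BPH-1 and 59.1% in WPMY-1. No neighbours within a line passed the adjusted threshold, though some unadjusted intervals lay above 0, ESRP1 in BPH-1 and KLF5, ESRP1, GRHL1 and EHF in WPMY-1. The step between vehicle-treated BPH-1 and RWF-treated WPMY-1 cells, which differ in both line and treatment, was not tested. The arrays of these groups did not overlap in any of the 9 genes. This follows from all 4 BPH-1 arrays lying above all 4 WPMY-1 arrays, as they did in 12% of all clusters.

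Within the BPH-1 line no member passed the threshold with RWF extract (0 of 9 called by limma), where 0.04% of all clusters were called. At an unadjusted p under 0.05 it was 1 of 9 higher, against 2.74% of clusters. The differences lay between -0.01 and 0.25, with a median of 0.13 against -0.01 over all clusters, and 7 of the 9 were above 0, as were 46.5% of clusters, with GRHL1 also just above 0 (0.002) after median centring. ESRP1 had the largest at 0.25 (1.19-fold, 95% interval 0.07 to 0.44, limma adjusted p = 0.631), followed by KLF5 at 0.23 (-0.12 to 0.58), GRHL2 at 0.19 (-0.01 to 0.39) and EHF at 0.18 (-0.005 to 0.37). OVOL1 had 0.13, ELF3 0.11, ESRP2 0.02, GRHL1 -0.003 and OVOL2 -0.01. Both RWF arrays were above both vehicle arrays in 5 genes (GRHL2, OVOL1, EHF, ELF3 and ESRP1), as they were in 15.3% of all clusters. The upper bounds of the intervals thus allow a rise of up to 1.49-fold for KLF5 and 1.35-fold for ESRP1 in this line.

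In WPMY-1 cells no member passed the threshold either (0 of 9 called by limma), where 1.53% of all clusters were called in either direction and 0.625% higher. At an unadjusted p under 0.05 it was 4 of 9 higher, against 10.7% of clusters. The 9 differences were above 0, as were 59.1% of clusters, except that ELF3 had -0.02 after quantile normalization and -0.03 after median centring of the arrays. Their median was 0.21 against 0.04 over all clusters and 0.03 over the olfactory receptor genes. KLF5 had the largest. Its RWF arrays at 7.21 and 7.29 were both above the vehicle arrays at 6.48 and 6.77, a difference of 0.62 (1.54-fold, SE 0.15, 95% interval 1.21-fold to 1.96-fold, limma adjusted p = 0.0878). It passed in 3 of 17 alternatives, with an adjusted p by limma of 0.0493 without dim clusters, 0.0422 with 1 cluster per gene and 0.0242 with the replicate number as a block, and its difference was 0.47 without vehicle-treated replicate 1 and 0.77 without vehicle-treated replicate 2. ESRP1 had 0.29 (limma adjusted p = 0.122), GRHL1 0.27 (0.182) and EHF 0.26 (0.150), the other members at an unadjusted p under 0.05, though ESRP1, GRHL1 and EHF were near the background guide in this line. OVOL2 had 0.21, OVOL1 0.17, GRHL2 0.13, ESRP2 0.11 and ELF3 0.02. Both RWF arrays were above both vehicle arrays in 7 genes, all but ELF3 and ESRP2, against 31.4% of all clusters.

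**Figure D3:**
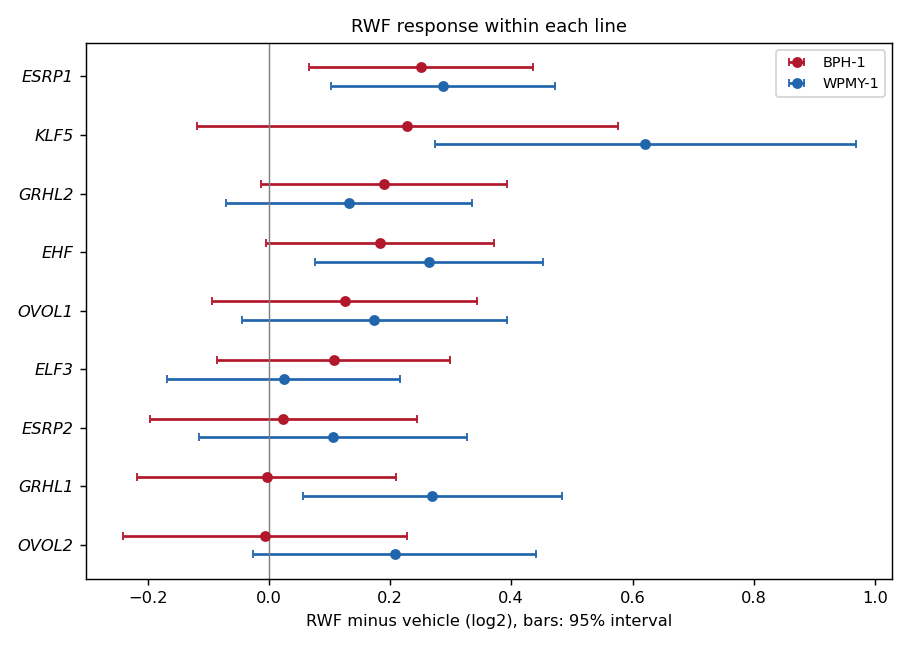
Log2 difference of RWF minus vehicle (x axis) for each of the 9 genes in BPH-1 (red) and WPMY-1 (blue), with points for the limma estimate and bars for its unadjusted 95% interval. The estimates lie between -0.01 and 0.62, the largest being KLF5 in WPMY-1, and none passed the threshold after adjustment over all clusters.

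Some stromal marker genes were called with RWF in WPMY-1 cells. Of the 10 stromal markers 3 were called, all lower, where 1.53% of all clusters were called in either direction. They were the fibrillar collagen genes COL1A2 (-0.63) and COL1A1 (-0.61) and the collagen VI gene COL6A3 (-0.48). DCN (0.36) and LUM (0.04), named after their values were seen, were above 0 and not called, and the other uncalled markers were below 0. The summed log2 level of the list was 78.9 and 79.6 in RWF-treated against 81.7 and 82.2 in vehicle-treated WPMY-1 cells. None of the 9 epithelial markers was called, and their summed level was 54.3 to 54.5 with RWF against 53.9 to 54.8 with vehicle, so these groups overlapped. Among them KRT18 had -0.65 (limma adjusted p = 0.0669), a larger size than any of the collagen differences, while KRT5 had 0.29. Both were named after their values were seen. The 3 collagen calls were each lost without WPMY-1 RWF replicate 1 (COL1A2 -0.61, COL1A1 -0.57, COL6A3 -0.39) or 2 (-0.66, -0.66 and -0.56). Of the 8 fits without 1 array, the call was lost in 5 for COL1A2, 4 for COL1A1 and 8 for COL6A3. The part of either list in the values of the 9 regulators was not tested.

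The response of BPH-1 minus that of WPMY-1 was called for 0 of 9 genes (limma, 0 at an unadjusted p under 0.05), where 0.00592% of all clusters were called. It was -0.39 for KLF5 (95% interval -0.88 to 0.10, limma adjusted p = 0.643), -0.27 for GRHL1 (-0.57 to 0.03, adjusted p = 0.609) and -0.21 for OVOL2, and it lay between -0.08 and 0.08 for the other members. No member can be said to have responded differently in the lines, and the KLF5 interval still allows a response in WPMY-1 that was larger by 0.88.

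Genes known to act below these regulators were also higher in BPH-1 in most cases. The gene lists were chosen with earlier results of these data known. Of all clusters, 8.82% were called higher in BPH-1 with vehicle and 16.6% in either direction. Of 10 GRHL2 target genes, 9 were higher in BPH-1 with vehicle and 0 lower, with a median of 1.52. They included the epithelial cadherin CDH1 (9.68 in BPH-1, 4.49 in WPMY-1, difference 5.19), the adhesion molecule EPCAM (4.84), the placental cadherin CDH3 (4.55) and the vesicle GTPase RAB25 (2.31). CLDN4, a tight junction claudin, named after its values were seen, was the exception at 0.08. TP63 itself was not analysed here, and of 15 measured p63 target genes 14 were higher and 1 lower, with a median of 2.99. SERPINB5, a serpin of basal epithelium, had 9.60 in BPH-1 and 3.27 in WPMY-1 cells (difference 6.33), the basal keratin KRT5 had a difference of 5.87 and the desmosomal cadherins DSC3 and DSG3 had 5.23 and 4.96. SERPINB5, DSC3 (3.35) and DSG3 (3.46) lay under the 95th percentile of the olfactory receptor genes (4.44) in vehicle-treated WPMY-1 cells. CDH1 (4.49), EPCAM (4.50) and RAB25 (4.54) lay just above that percentile in these cells. The sizes of the differences of all these genes are thus uncertain. DST, a cytoskeletal linker with long isoforms outside epithelia and also named after its values were seen, was the lower one at -0.73. With RWF in both lines, 9 of 10 GRHL2 targets and 13 of 15 p63 targets were higher and 0 lower, where 8.77% of all clusters were called higher. CDH1, EPCAM, CLDN4 and KRT5 are also among the epithelial markers counted above, so these counts are not separate from that one.

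Among other epithelial transcription factors 8 of 10 were higher in BPH-1 with vehicle and 0 lower, with a median of 0.80, where 8.82% of all clusters were called higher. SOX9 (2.12), the prostate pioneer factor FOXA1 (1.79), SOX15 (1.78) and the AP-2 factor TFAP2C (1.76) led. Of 8 measured family paralogs of the regulators, only TP73, a relative of TP63, was called (0.33, limma adjusted p = 0.0273). That call was lost without vehicle-treated BPH-1 replicate 2 (0.25) or vehicle-treated WPMY-1 replicate 1 (0.29) or 2 (0.38). KLF2 (0.27), KLF6 (0.23), GRHL3 (0.13), SPDEF (0.12), OVOL3 (0.05), ELF5 (0.02) and KLF4 (0.02), named after their values were seen, did not pass. The median of the 8 paralogs was 0.12. Whether the 9 regulators differ from their paralogs as a group was not tested.

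The opposing factors ran the other way. Of 8 mesenchymal transcription factors 6 were lower in BPH-1 with vehicle and 0 higher, with a median of -0.93. Of all clusters 16.6% were called in either direction. PRRX1, a homeobox factor of mesenchyme, had 4.20 in BPH-1, under the 95th percentile of the olfactory receptor genes there (4.55), and 6.55 in WPMY-1 cells (-2.35), the E-protein TCF4 had -2.29, TWIST2 -1.43 and ZEB1 -1.02. With RWF in both lines 5 of 8 mesenchymal factors were lower, where 16.6% of all clusters were called in either direction. PRRX1 also fell with RWF in WPMY-1 cells (-0.82, limma adjusted p = 0.0135), the 1 of 8 that was called there, though not without WPMY-1 RWF replicate 1 (-0.78) or 2 (-0.85), while ZEB1 had -0.10 and was not.

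The miR-200 family, which silences ZEB1, was read through 5 precursor loci. Its mature sequences (RefSeq, GRCh38.p14) are shown because the family falls into 2 seed groups, with the seed, bases 2 to 8, in capitals.
miR-141-3p: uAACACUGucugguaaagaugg
miR-200a-3p: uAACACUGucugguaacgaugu
miR-200c-3p: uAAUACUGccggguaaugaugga
miR-200b-3p: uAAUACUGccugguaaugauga
miR-429: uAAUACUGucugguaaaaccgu
The first pair shares AACACUG and the last 3 share AAUACUG. MIR141 and MIR200C, neighbours on chromosome 12, were higher in BPH-1 with vehicle, by 0.87 (limma adjusted p = 0.00359) and 0.49 (0.00403), 1 from each seed group. With RWF in both lines only MIR141 was called (0.95, adjusted p = 0.00231), and MIR200C had 0.27 (0.0659). The chromosome 1 loci MIR200A (-0.03), MIR200B (-0.02) and MIR429 (0.25), named after their values were seen, were not called. All loci but MIR200B read under the 95th percentile of the olfactory receptor genes in all groups and mature microRNAs were not measured.

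Other splicing regulators were called in both directions, where 16.6% of all clusters were called in each comparison of the lines. Of 8, only RBM47, an RNA-binding protein of epithelia, was higher in BPH-1 with vehicle (1.02), 3 were lower (RBFOX2 -0.64, MBNL2 -0.60, CELF1 -0.37) and 4 were not called, with a median of -0.12. With RWF in both lines 2 were higher (RBM47 1.07, QKI 0.41) and 2 lower (RBFOX2 -0.49, CELF1 -0.32), with a median of 0.05. There QKI lost its call in 4 of 8 fits without 1 array and CELF1 in 6 of 8. With vehicle MBNL2 had -0.34 without vehicle-treated WPMY-1 replicate 1 and lost its call in 5 of 8 fits without 1 array, and CELF1 in 3 of 8. Among 7 genes whose exons are chosen under ESRP control, 4 were higher and 2 lower in whole-gene level. These were NUMB (0.76), FGFR2 (0.75), EXOC7 (-0.63) and CD44 (-0.56) at the largest sizes, and exon use was not measured.

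**Figure D4:**
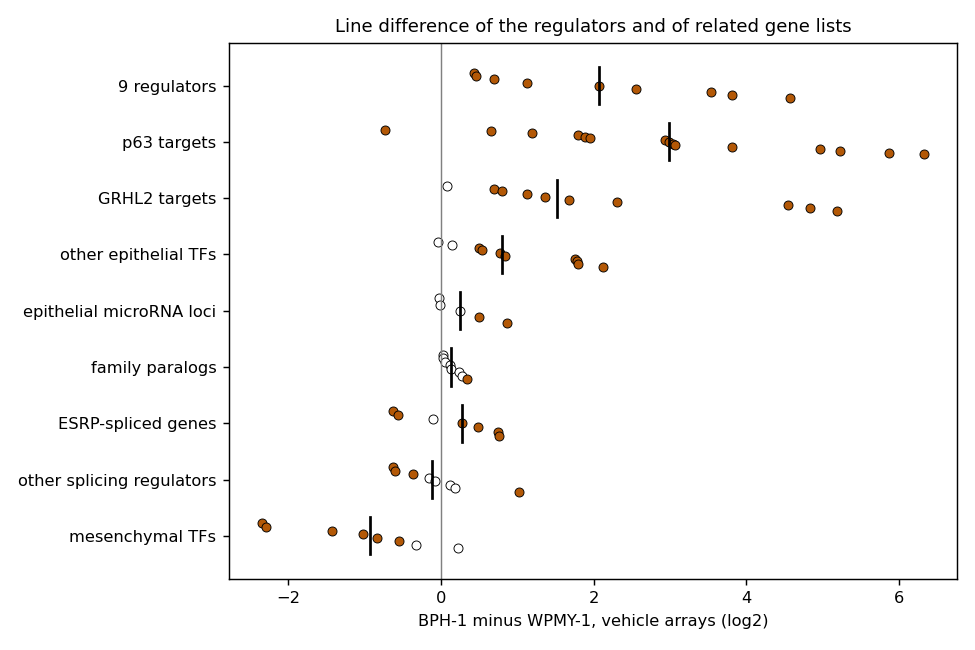
Log2 difference of BPH-1 minus WPMY-1 in vehicle arrays (x axis) for each gene (point) of the 9 regulators and of 8 gene lists, filled where limma called it and open where not, with a bar at each list's median. The medians run from 2.99 for p63 targets and 2.08 for the 9 regulators to -0.93 for mesenchymal transcription factors.

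With RWF extract these lists held few calls, where 0.04% of all clusters were called in BPH-1 and 1.53% in WPMY-1. In BPH-1 cells 0 genes of any list were called. In WPMY-1 cells the laminin-binding integrin gene ITGA6 rose (0.61, limma adjusted p = 0.0416) as 1 of 15 p63 targets, BNC1, a basonuclin of basal keratinocytes, fell (-0.67, adjusted p = 0.0228) as 1 of 10 epithelial factors, and the monocyte marker CD14 rose (0.49, adjusted p = 0.0405). CD14 read 4.29 with vehicle there, under the 95th percentile of the olfactory receptor genes (4.44), and 4.78 with RWF. The calls of ITGA6 and CD14 were lost in 7 and 8 of the 8 fits without 1 array, with differences of 0.49 to 0.73 and 0.43 to 0.56, and that of BNC1 without WPMY-1 vehicle replicate 1 (-0.61) or RWF replicate 1 (-0.65) or 2 (-0.69). GRHL2 targets, paralogs, splicing regulators, ESRP-spliced genes and microRNA loci had 0 called in that line.

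The genes whose pattern over the 8 arrays was most like each member were found by Pearson correlation against 22464 other genes. The lines set most of such a correlation, since all members differ between them, so it is given as a description. GRHL2 was most like EPCAM and CDH1 (r = 0.9997 and 0.9995), EHF and ESRP1 were most like each other (0.9996), with EREG (0.9992) next for EHF and EPCAM (0.9996) for ESRP1, and ESRP2 was most like ITGB4 and DHRS9 (0.999 each). ELF3 was most like VAMP8 (0.999) and LSR (0.997), KLF5 like CPT1A and PLCG2 (0.998 each), and GRHL1 like NAB1 (0.998) and CATSPER2 (0.996). OVOL1 had SLC22A20P (0.993) and RASSF10 (0.990), and OVOL2 PAQR4 and ANO9 (0.992 each). Between 1092 and 1424 genes had an r over 0.95 with each of the 7 members other than OVOL1 (155) and OVOL2 (253).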

How the data were processed

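Values in the deposited table are log2 expression levels, 1 for each transcript cluster on each of 8 arrays, which the authors made with RMA according to the submitters' processing notes (no version is given). The platform's probe annotation ties 23781 clusters to 1 gene symbol, 1543 to several and 42204 to none. Members and list genes came from the first kind, taking the brightest cluster by its mean over the 8 arrays. Members and gene lists were chosen with earlier results of these data known. limma 3.58.1 in R 4.3.3 fitted the 4 groups together (4 residual, 4.34 prior degrees of freedom), with Benjamini-Hochberg adjustment over 67528 clusters and a call at an adjusted p under 0.05. The fit was tested on simulated data. Named genes were the members, up to 4 called genes of each list by size, and the 2 genes most like each member. The number of arrays limits the precision. Alternatives were median centring, quantile normalization, removal of dim clusters (33764 remained), replicate number as a block, eBayes with trend and robust, a fit of only the groups compared, the methods' t-test, 1 cluster per gene, averaging a gene's clusters, and dropping each array once. matplotlib 3.10.9 under Python 3.11.15 drew the figures.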

Additional observations from a re-analysis of the deposited data

Results flagged for a closer look

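No measured regulator met a rule for a closer look. The check covered 106 genes, the 9 regulators and the genes of the lists. Of these, 12 (11.3%), all from the lists, had differences of opposite sign in the lines with RWF extract. In each line both RWF arrays were apart from both vehicle arrays, a pattern that 5.86% of all clusters had. The difference of the responses, BPH-1 minus WPMY-1, was tested by limma for each and none passed. In 9 of them RWF gave a lower value in BPH-1 and a higher one in WPMY-1. KRT5 had -0.75 in BPH-1 and 0.29 in WPMY-1, a difference of -1.04 (adjusted p = 0.292), and ITGA6 had -0.14 and 0.61, a difference of -0.75 (adjusted p = 0.289). SOX9 had -0.32 in BPH-1 and 0.29 in WPMY-1 (difference -0.61, adjusted p = 0.477), and DCN had -0.06 and 0.36 (-0.43, 0.606). The differences of the responses were -0.38 for KRT14, -0.32 for HOXB13, -0.29 for KLF6, -0.25 for ZNF750 and -0.19 for PKP3. The other way round, PRRX1 had 0.12 in BPH-1 and -0.82 in WPMY-1, a difference of 0.94 (limma adjusted p = 0.178), CLCA2 had a difference of 0.55 and QKI one of 0.22. Over these 12 genes the adjusted p ran from 0.178 to 0.669. ZNF750 in both lines, DCN and PRRX1 in BPH-1 and CLCA2 in WPMY-1 read under the 95th percentile of the olfactory receptor genes. The signs of their differences there are thus uncertain.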

How the results depend on the processing

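The line differences of all 9 regulators kept their direction under every alternative run. With vehicle 9 were called and 7 to 9 when an array was left out, with RWF 8 were called and 7 to 8, and OVOL1 and OVOL2 account for the lost calls. By the methods' t-test with Benjamini-Hochberg adjustment 0 members were called in either line comparison, where the test called 6 and 0 of all clusters. With RWF in WPMY-1 cells the count of 0 became 1, KLF5, when dim clusters were left out (limma adjusted p = 0.0493), with 1 cluster per gene (0.0422) and with a replicate block (0.0242). KLF5 was called there in 3 of 17 alternatives, with an adjusted p of 0.0242 to 0.494. The replicate numbers are not said to pair the arrays. Differences between replicates 1 and 2 correlated at 0.12 between the BPH-1 groups and -0.03 between the WPMY-1 groups, at 0.27 between the vehicle groups and at 0.04 between the RWF groups, and the block moved the calls among all clusters to 1375 in WPMY-1 and 7 in BPH-1, against 1033 and 27 without it. With RWF in BPH-1 and for the difference of the responses, 0 members were called under every alternative run. Small RWF values changed sign. ELF3 in WPMY-1 had -0.0170 after quantile normalization and -0.0311 after median centring, and -0.0190 to 0.0676 without 1 array. In BPH-1 GRHL1 had 0.00225 after median centring and, without 1 array, -0.0849 to 0.0784, OVOL2 -0.0924 to 0.0790 and ESRP2 -0.0811 to 0.129. For the difference of the responses ESRP1 had 0.0109 after quantile normalization, 0.0248 after median centring and -0.0907 to 0.0184 without 1 array, OVOL1 had 0.0124 after median centring and -0.172 to 0.0751 without 1 array, GRHL2 -0.0239 to 0.139 and ESRP2 -0.186 to 0.0236. The causes were not tested. Among all clusters 1033 were called with RWF in WPMY-1 as reported, 40.9% of them higher. Under the limma alternatives other than dropping an array these calls ranged from 243 to 1855. The share of them that were higher ran from 24.7% after median centring to 44.4% with 1 cluster per gene. With vehicle the share of line calls that were higher was 44.1% after median centring, against 5955 of 11234 as reported. In BPH-1 the calls with RWF ranged from 2 to 77 under the same limma alternatives, and the t-test called 0 in either line. The t-test was not run for the difference of the responses. Where 1 array was left out, the spread of its group came from the other groups. Some values were near background, as of ESRP1, GRHL2, EHF, GRHL1, CDH1, EPCAM, RAB25, SERPINB5, DSC3 and DSG3 in WPMY-1 and PRRX1 in BPH-1. So were those of DCN in BPH-1, CLCA2 in WPMY-1, ZNF750 in both lines and CD14 in vehicle-treated WPMY-1. This limits what can be read from their folds and RWF differences there.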
